A study of Pyrus hybrid rootstock with 24 samples.

Results

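The genes described here are 5 monolignol synthesis genes of pear, 1 labelled by the study as Pb4CL (Pbr026213.1) and 4 as PbCAD (Pbr004676.1, Pbr026289.1, Pbr003617.1, and Pbr005802.1), among 42812 genes listed in each library. They were chosen because the study labelled them as DEGs (differentially expressed genes) of the lignin pathway in these same libraries. The study counts DEGs between heterografts and homografts at each stage, but it does not state which comparison gave these genes. The differences between graft types at a given stage are taken to have chosen the genes, and they are given as a description without a test. The deposited expression files hold identifiers without enzyme names and no annotation was used here, so the labels 4CL and CAD were not checked, and no other gene of the pathway could be listed by identifier.

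Lignin, the phenolic polymer that stiffens and waterproofs the walls of xylem cells, is polymerised from monolignols, which plants make from phenylalanine. 4-Coumarate-CoA ligase (4CL) joins coenzyme A to hydroxycinnamic acids and so delivers the activated precursors of monolignols and also of flavonoids. Cinnamyl alcohol dehydrogenase (CAD) carries out the last reduction, from cinnamaldehydes to the alcohols. In many plants CAD is encoded by a gene family whose members differ in how far they serve lignin or wound and defence responses. Lignified xylem has to be rebuilt across the junction when a scion and a rootstock join.

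RNA was sequenced from stem graft unions of micro-grafted plantlets grown in tissue culture with silicon tubing around the union. “Qingzhen D1” (Pyrus communis × Pyrus bretschneideri) grafted on itself made the homografts, and QAUP-1 (Pyrus ussuriensis) scions on “Qingzhen D1” rootstocks made the heterografts. This order of scion and rootstock is that of the sample titles and of the study's methods, whereas the series description names the partners of the heterograft in reverse. Unions were collected at 1, 5, 9, and 30 DAG (days after grafting). The study named these stages SS for separate partners, CF for forming callus, CD for a differentiating cambium, and VC for joined vascular tissue. The names are shared by both graft types, but in the study's sections heterografts still had a necrotic layer at 5 DAG. Their callus appeared at 9 DAG, and gaps remained at 30 DAG. Graft types compared at a stage therefore match in day and not in anatomy. The homograft conditions are SSS, SCF, SCD, and SVC, the heterograft conditions are DSS, DCF, DCD, and DVC, and each of the 8 conditions had 3 libraries, given by the methods as biological replicates. A heterograft library therefore holds RNA of 2 genotypes in unknown shares.

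The deposited values are FPKM (fragments scaled by gene length and by library size). The read number behind each value could be worked out from them. Totals ran from 10374047 to 13630171 reads on genes per library over the 24 libraries, which is not the number of reads sequenced. Of all genes, 26895 reached an FPKM of 1 in 3 or more libraries and were tested, and all 5 genes passed. DCD replicate 1 had the lowest mean correlation with its 2 replicates (r = 0.985 over all listed genes on the log2 scale), and the differences between graft types at CD are given with and without it. The range was narrow, with DVC replicate 1 next (0.986) and 0.9905 as the highest mean. Tissue markers could not be checked, because the files name no gene.

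The genes were expressed at very different levels. Levels are compared as FPKM, which is per length. The PbCAD gene Pbr003617.1 had a mean FPKM of 77.5 over the 24 libraries, above 91.1% of the tested genes. Pb4CL had a mean of 6.98, above 40.2% of the tested genes, and the other PbCAD genes had 5.27 (Pbr026289.1), 4.86 (Pbr004676.1), and 2.48 (Pbr005802.1), above 34.4%, 32.8%, and 20.8%. The coding lengths implied by the recovered reads were 1680 bp for Pb4CL and 1068 to 1101 bp for the 4 PbCAD genes. Reads per library ran from 258 to 2282 for Pbr003617.1 and from 20 to 492 for Pb4CL, but only from 5 to 107 for Pbr005802.1, so counting error is largest there. Its 5 reads in SVC replicate 2 have an exact 95% Poisson interval of 1.62 to 11.7 reads, which covers counting error only.

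Replicates of these genes were spread widely. The standard deviation between replicates on the log2(FPKM + 1) scale was 0.75 for Pb4CL, a larger spread than that of 99.1% of the tested genes, whose median was 0.21. It was 0.55 for Pbr003617.1, 0.47 for Pbr026289.1, 0.44 for Pbr005802.1, and 0.41 for Pbr004676.1.

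**Figure D1:**
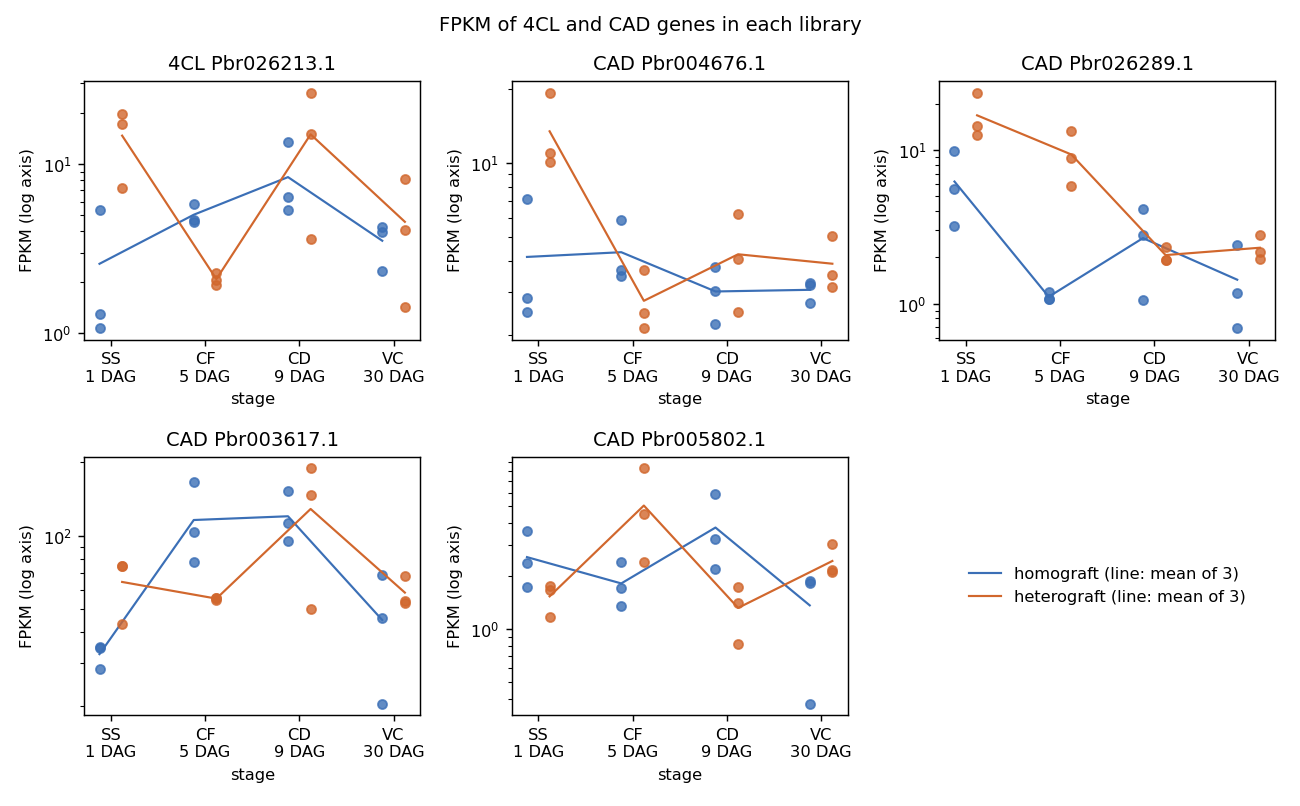
FPKM (log axis) of the 5 genes at each stage, with 1 point per library and lines through the means of 3 libraries, homografts in blue and heterografts in orange. Pb4CL and Pbr003617.1 were high in DSS against SSS, low in DCF against SCF, and widely spread in DCD, where replicate 1 was the lowest.

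Pb4CL had an FPKM of 5.34, 1.31, and 1.08 in the 3 libraries of SSS and of 19.7, 7.26, and 17.2 in those of DSS. At CF the order was turned, with 4.65, 4.58, and 5.83 in SCF against 1.93, 2.27, and 2.07 in DCF. All DSS libraries lay above all SSS libraries and all DCF libraries below all SCF libraries, so the graft types did not overlap at either stage. At CD the values were 6.38, 13.4, and 5.33 in SCD and 3.59, 26.4, and 15 in DCD, and at VC they were 3.95, 4.27, and 2.35 in SVC and 1.44, 4.09, and 8.15 in DVC. At both later stages the graft types overlapped, and the low DCD value is that of DCD replicate 1.

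The SSS mean of Pb4CL was 2.57 ± 2.40 (SD, n = 3), followed by 5.02 ± 0.701 in SCF, by 8.37 ± 4.40 in SCD, and by 3.52 ± 1.03 in SVC. The DSS mean was 14.7 ± 6.58, followed by 2.09 ± 0.168 in DCF, by 14.98 ± 11.4 in DCD, and by 4.56 ± 3.38 in DVC. The homograft means therefore had a single peak at CD, and the heterograft means had a high level at SS, a trough at CF, and a high level again at CD. The differences on the log2(FPKM + 1) scale, heterograft minus homograft, were 2.23 at SS and -0.96 at CF, then 0.53 at CD and 0.13 at VC, with an SE of 0.56 from the fit. At CD the difference was 1.25 without DCD replicate 1 and -0.03 without DCD replicate 2, so its direction rested on 1 library. At VC it was -0.08 without SVC replicate 3 and -0.33 without DVC replicate 3, and it ranged up to 0.62 with another library left out. That direction rested on single libraries too. In the order of the 8 conditions, DCD > DSS > SCD > SCF > DVC > SVC > SSS > DCF, all 7 pairs of neighbours overlapped. QAUP-1 RNA is present in heterografts only and was aligned to another Pyrus genome, so a difference in alignment and a difference in expression cannot be told apart, and neither can fewer expressing cells and less RNA per cell.

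The most abundant PbCAD gene, Pbr003617.1, had an FPKM of 34.7, 34.7, and 28.4 in SSS and of 75.2, 43.4, and 75.0 in DSS. At CF it had 78.0, 166, and 104 in SCF and 55.4, 55.6, and 54.3 in DCF. As for Pb4CL, heterografts were above homografts at SS and below them at CF, without overlap at either stage, and the 3 DCF libraries were almost equal. At CD the values were 95.3, 113, and 152 in SCD and 50.1, 189, and 147 in DCD, where replicate 1 was again the low library. At VC they were 20.4, 68.6, and 46.0 in SVC and 68.4, 53.0, and 53.6 in DVC, and the graft types overlapped at both stages.

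The homograft mean of Pbr003617.1 went from 32.6 ± 3.63 (SD, n = 3) in SSS to 116 ± 45.2 in SCF and 120.1 ± 29.0 in SCD, and back to 45.0 ± 24.1 in SVC. The heterograft mean was 64.5 ± 18.3 in DSS and 55.1 ± 0.697 in DCF, then 128.7 ± 71.1 in DCD, and 58.3 ± 8.73 in DVC. In homografts all 3 SCF libraries were above all 3 SSS libraries, whereas in heterografts the libraries of SS and CF overlapped, and so did those of CF and CD. The log2 differences between graft types were 0.93 at SS and -0.99 at CF, then -0.07 at CD and 0.52 at VC (SE 0.41). Without DSS replicate 2, the low DSS library, the difference at SS was 1.18. At CD the difference was 0.50 without DCD replicate 1, 0.11 without SCD replicate 3, and -0.45 without DCD replicate 2, so its direction changed with the library left out. At VC it was 0.04 without SVC replicate 1 and 0.89 without SVC replicate 2. In the order DCD > SCD > SCF > DSS > DVC > DCF > SVC > SSS, SCF and DSS were the only neighbours whose libraries did not overlap.

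**Figure D2:**
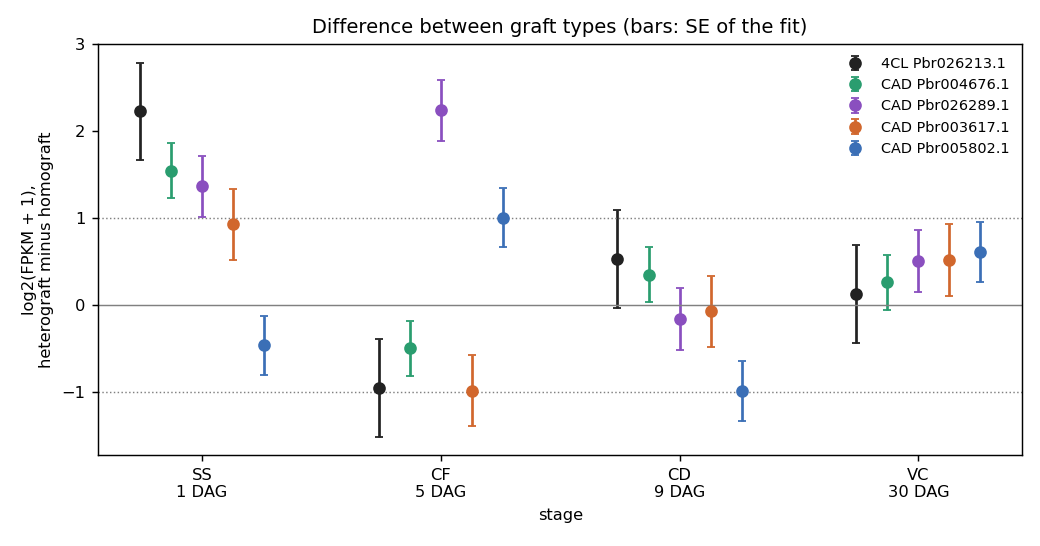
Difference between heterografts and homografts in log2(FPKM + 1) at each stage, with bars for the SE of the fit and dotted lines at the threshold of 1 in either direction. At SS the differences ran from -0.47 to 2.23, and at VC they lay between 0.13 and 0.61, where that of Pb4CL (0.13) was below 0 without SVC replicate 3 or DVC replicate 3.

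The PbCAD gene Pbr026289.1 was the gene with the largest spread of condition means, 15.3-fold from SCF to DSS. Its FPKM was 3.21, 9.96, and 5.59 in SSS and 14.5, 23.7, and 12.5 in DSS. At CF it was 1.19, 1.06, and 1.07 in SCF and 8.97, 5.87, and 13.3 in DCF. Heterografts were above homografts at both stages, without overlap, and the 3 SCF libraries, with 13 or 14 reads each, were close together. At CD and VC the graft types overlapped, with 1.06 to 4.15 in SCD, 1.93 to 2.35 in DCD, 0.695 to 2.42 in SVC, and 1.96 to 2.81 in DVC.

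The homograft mean was 6.26 ± 3.42 (SD, n = 3) in SSS and 1.11 ± 0.0721 in SCF, with all SCF libraries below all SSS libraries. The heterograft mean was 16.9 ± 5.98 in DSS and 9.39 ± 3.76 in DCF, with overlap, and 2.07 ± 0.237 in DCD, with all DCD libraries below all DCF libraries. The log2 differences between graft types were 1.36 at SS and 2.24 at CF, then -0.16 at CD and 0.50 at VC (SE 0.35). At CD the difference was -0.13 without DCD replicate 1 and 0.13 without SCD replicate 3. All 7 pairs of neighbours in its order of conditions, DSS > DCF > SSS > SCD > DVC > DCD > SVC > SCF, overlapped.

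The PbCAD gene Pbr004676.1 had an FPKM of 7.13, 2.49, and 2.83 in SSS and of 10.1, 19.3, and 11.0 in DSS, so that all DSS libraries were above all SSS libraries. In the other 6 conditions its libraries lay between 2.14 and 6.21, and the graft types overlapped at CF, CD, and VC. The mean in DSS was 13.5 ± 5.08 (SD, n = 3), and the other 7 condition means ran from 2.75 ± 0.806 in DCF to 4.34 ± 1.34 in SCF. DSS and SCF, the highest conditions, were the only neighbours in its order whose libraries did not overlap. The log2 differences between graft types were 1.54 at SS and -0.50 at CF, then 0.35 at CD (0.61 without DCD replicate 1) and 0.26 at VC (SE 0.31).

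The least abundant PbCAD gene, Pbr005802.1, alternated between graft types. Its FPKM was 2.39, 1.35, and 1.70 in SCF and 2.42, 8.23, and 4.51 in DCF, and then 2.20, 5.89, and 3.27 in SCD and 1.73, 0.818, and 1.4 in DCD. Heterografts were above homografts at CF and below them at CD, without overlap, although the nearest libraries at CF, with 29 reads in SCF and 32 in DCF, were almost level. At VC it had 1.88, 0.374, and 1.83 in SVC and 2.11, 2.15, and 3.06 in DVC, again with heterografts above. At SS, with 1.73 to 3.60 in SSS and 1.17 to 1.75 in DSS, the libraries overlapped. The log2 differences were -0.47 at SS and 1.00 at CF, then -0.99 at CD and 0.61 at VC (SE 0.34). At CF the difference was 0.64 without DCF replicate 2, and at CD it was -1.12 without DCD replicate 1. All 7 pairs of neighbours in the order DCF > SCD > SSS > DVC > SCF > DSS > SVC > DCD overlapped.

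Read by stage, 4 of the 5 genes had all heterograft libraries above all homograft libraries at SS and none (0) had them below, where 19.1% and 11.7% of the tested genes did. At CF it was 2 above and 2 below (8.62% and 13.5% of the tested genes), at CD 0 above and 1 below (5.64% and 4.19%), and at VC 1 above and 0 below (6.80% and 5.12%). With the thresholds of the study for DEGs, a log2 difference over 1 in size together with p below 0.05 in limma without adjustment, 3 genes passed as higher at SS (2.80% of the tested genes), 2 as higher at CF (0.948%), and 0 as lower at either (1.68% and 0.565%). None of the 5 (0) passed in either direction at CD (0.357% higher and 0.171% lower) or at VC (0.547% and 0.126%). Without DCD replicate 1, Pb4CL passed as higher (1.25) and Pbr005802.1 as lower (-1.12) at CD. Pbr005802.1 also passed as lower at CD with a pseudocount of 0.1, with voom on recovered reads, and without SCD replicate 1, SCD replicate 3, or DCD replicate 3, and it no longer passed at CF without SCF replicate 2, SCF replicate 3, or DCF replicate 2. The order above at SS and below at CF, without overlap, was that of 2 of the 5 genes (3.49% of the tested genes), and its reverse that of 0 (1.81%). The order above at CF and below at CD was that of 1 (0.632%), and its reverse that of 0 (0.468%). Since the genes may have been chosen on this contrast, nothing is read from these counts. Pbr026289.1 at SS (1.36) kept a difference of 1.03 to 1.72 with each library left out. Just inside the threshold was Pbr005802.1 at CF (1.00), and just outside were Pbr005802.1 at CD (-0.99), Pbr003617.1 at CF (-0.99), Pb4CL at CF (-0.96), and Pbr003617.1 at SS (0.93). Pbr003617.1 thus passed at no stage in the limma fit, although the study, with DESeq on read counts, labelled it a DEG. It passed as lower at CF with voom on recovered reads, with a pseudocount of 0.1, and without SCF replicate 1 or SCF replicate 3, and as higher at SS without DSS replicate 2 (1.18).

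Stage differences averaged over both graft types were tested, because in a balanced design they are orthogonal to differences between graft types at a stage. This separates the errors of the estimates only. The study also describes its lignin DEGs as tending to rise over healing, so stage differences may themselves have entered the choice. A high level in a single condition, such as DSS, enters both kinds of difference, so the tests are not independent of how the genes were chosen. The tests use log2(FPKM + 1), a limma fit with 1 mean per condition, and Benjamini-Hochberg adjustment over the 26895 tested genes. Over the 4 stages, 4 of the 5 genes differed in the F test at an adjusted p below 0.05, beside 63.4% of the tested genes. The adjusted p was 6.77e-06 for Pbr026289.1, 0.00145 for Pbr003617.1, 0.00291 for Pbr004676.1, and 0.0269 for Pb4CL in limma. Pbr005802.1 had a limma adjusted p of 0.248, and its stage means lay between 1.47 and 1.98 on the log2 scale. The call of Pb4CL was lost without SCD replicate 2 (limma adjusted p = 0.0791), without DCD replicate 2 (0.0825), without DCD replicate 3 (0.0650), and with voom on recovered reads (0.0719), and without DCD replicate 1 its adjusted p was 0.00165.

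**Figure D3:**
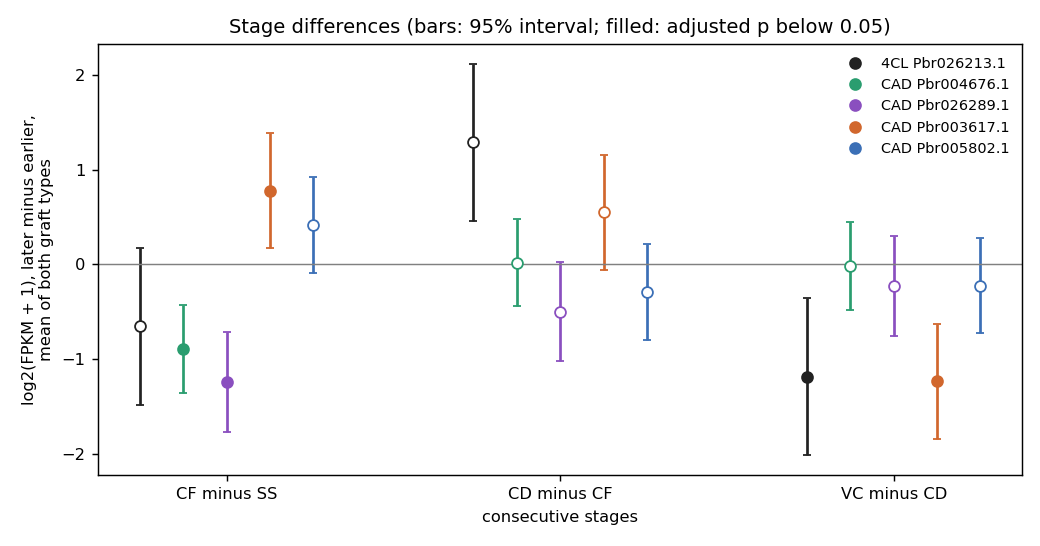
Difference between consecutive stages in log2(FPKM + 1), averaged over both graft types, with 95% intervals from limma and filled symbols at an adjusted p below 0.05. On this average, Pbr004676.1 and Pbr026289.1 fell and Pbr003617.1 rose from SS to CF, and Pb4CL and Pbr003617.1 fell from CD to VC. The fall of Pbr004676.1 lay in heterografts and the rise of Pbr003617.1 in homografts.

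From SS to CF, 2 genes fell (beside 12.4% of the tested genes) and 1 rose (19.5%). Pbr026289.1 fell by 1.24 on the log2 scale (SE 0.25, limma adjusted p = 0.000842), and each of the 6 CF libraries was below the SS mean of its graft type. Pbr004676.1 fell by 0.89 (SE 0.22, limma adjusted p = 0.00428), with 5 of 6 CF libraries below, but the fall lay in heterografts, where the log2 difference was -1.91 against 0.13 in homografts. Pbr003617.1 rose by 0.78 (SE 0.29, limma adjusted p = 0.0465), with 3 of 6 CF libraries above, and here the rise lay in homografts, with a log2 difference of 1.73 against -0.18 in heterografts. This call was lost in 15 of the 24 fits without 1 library, with the highest limma adjusted p without DSS replicate 2 (difference 0.65, adjusted p = 0.125) and SCF replicate 2 (0.63, 0.124). It held without SCF replicate 1, SCD replicate 3, SVC replicates 1 or 2, DSS replicates 1 or 3, or any 1 of the DCD replicates. For Pb4CL the averaged difference was -0.65 (95% interval -1.48 to 0.18), from 0.94 in homografts and -2.24 in heterografts.

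From CF to CD none of the 5 genes (0) passed, beside 0.331% of the tested genes that rose and 0.294% that fell, although 1 of them, Pb4CL, was at an unadjusted p below 0.05. Its difference was 1.29 (SE 0.40, limma adjusted p = 0.147), with all 6 CD libraries above the CF mean of their graft type. Without DCD replicate 1 it was 1.65 and passed (limma adjusted p = 0.0128). The averaged difference of Pbr003617.1 was 0.55 (95% interval -0.05 to 1.16), or 0.84 without DCD replicate 1 (limma adjusted p = 0.0582), and that of Pbr026289.1 was -0.50 (-1.02 to 0.03). In Pbr026289.1 the graft types went apart, with 0.70 in homografts and -1.70 in heterografts, and in Pbr005802.1 too, with 0.71 and -1.29.

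From CD to VC, 2 genes fell and 0 rose, beside 17.1% and 21.5% of the tested genes. Pbr003617.1 fell by 1.23 on the log2 scale (SE 0.29, limma adjusted p = 0.00233), and Pb4CL fell by 1.18 (SE 0.40, limma adjusted p = 0.0236), in both with 6 of 6 VC libraries below the CD mean of their graft type. The fall was -1.53 in homografts and -0.94 in heterografts for Pbr003617.1, and -0.98 and -1.38 for Pb4CL. In homografts all VC libraries of both genes were below all CD libraries, whereas in heterografts the libraries of CD and VC overlapped. The overlapping CD library was DCD replicate 1, with an FPKM of 50.1 for Pbr003617.1 and 3.59 for Pb4CL. The call of Pb4CL was lost without SCD replicate 2 (-1.0), SVC replicate 3 (-1.08), DCD replicate 2 (-0.90), DCD replicate 3 (-1.10), or DVC replicate 1 (-0.93). In Pbr005802.1 all SVC libraries were below all SCD libraries and all DVC libraries were above all DCD libraries, with log2 differences of -1.02 and 0.58, and the average was -0.22 (95% interval -0.73 to 0.28). For Pbr004676.1 the average was -0.01 (-0.48 to 0.45).

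**Figure D4:**
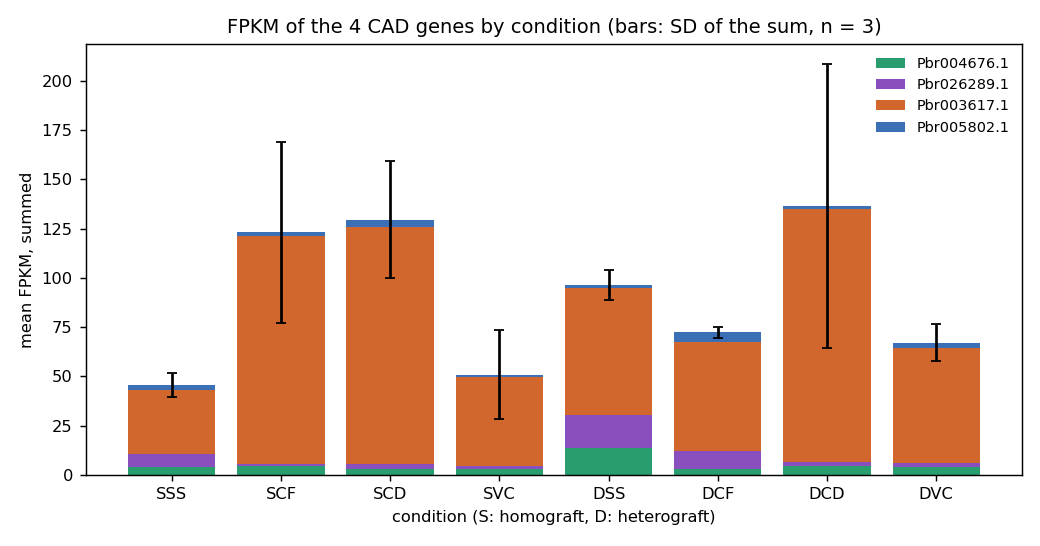
Mean FPKM of the 4 PbCAD genes stacked by condition, with bars for the SD of the sum over 3 libraries. The sum was 45.6 in SSS and 136 in DCD, and Pbr003617.1 made up most of it in every condition.

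Summed over the 4 PbCAD genes, FPKM at SS was 45.6 ± 6.09 (SD, n = 3) in homografts and 96.4 ± 7.66 in heterografts, and at CF it was 123 ± 46.0 and 72.3 ± 2.66. At CD the sums were 129.6 ± 29.9 and 136 ± 71.9, with 56.3 in DCD replicate 1 against 196 and 157 in the other DCD libraries, and at VC they were 50.9 ± 22.4 and 67.0 ± 9.32. The text of the study counts a further PbCAD gene, whose identifier was not used here, so that the sums and shares cover only these 4. The graft types were thus apart in opposite directions at SS and CF, without overlap of the libraries, and they overlapped at CD and VC. Pbr003617.1 made up 49.5% to 96.5% of the sum in a library. Its share was smallest at SS, with a mean of 71.7% in SSS and 66.2% in DSS, and at CF it was 93.7% in SCF and 76.3% in DCF. The rest of the sum at SS was mainly Pbr026289.1 (13.7% in SSS and 18.0% in DSS) and Pbr004676.1 (9.01% and 14.3%). In DCF, Pbr026289.1 held 13% against 0.993% in SCF, with shares of 8.0% to 18.0% and of 0.610% to 1.4% in the libraries.

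The genes differed in what their variation over the 24 libraries went with. Of the sum of squares on the log2 scale, stage, as an average over graft types, held 49.3% in Pbr026289.1 and 46.5% in Pbr003617.1, beside 48.6% over all tested genes. It held 33.6% in Pbr004676.1, 25.6% in Pb4CL, and 11.2% in Pbr005802.1. The part in which the difference between graft types changed with stage was 48.8% in Pbr005802.1, 32.0% in Pb4CL, 31.0% in Pbr004676.1, 20.7% in Pbr003617.1, and 17.5% in Pbr026289.1, beside 12% over all tested genes. Graft type over all stages held 20.8% in Pbr026289.1, 9.79% in Pbr004676.1, 5.63% in Pb4CL, and under 1% in Pbr003617.1 (0.355%) and Pbr005802.1 (0.108%), beside 5.96% over all tested genes. The parts for graft type and for graft type by stage are made of the differences taken to have chosen the genes and are descriptions.

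**Figure D5:**
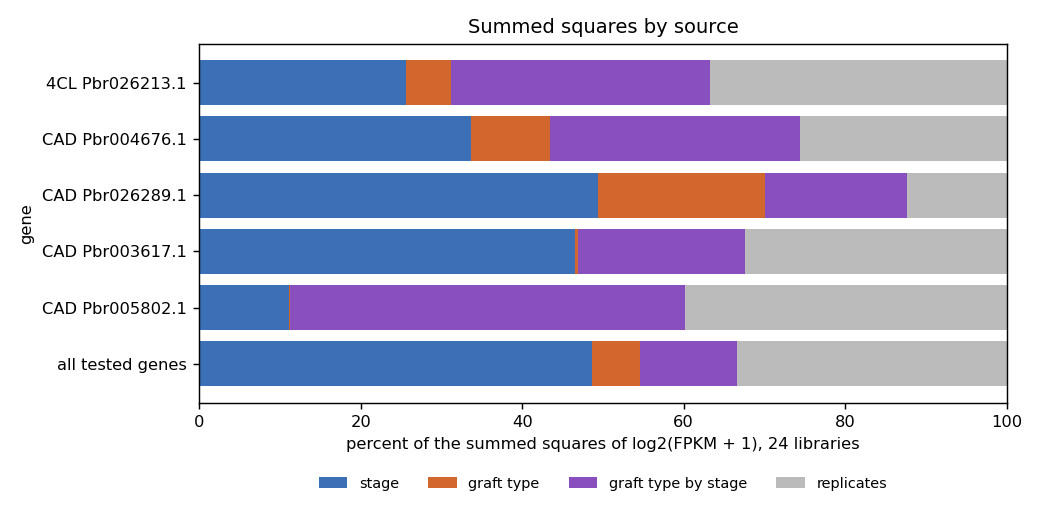
Percent of the sum of squares of log2(FPKM + 1), taken over 24 libraries, that went with stage, graft type, graft type by stage, and replicates, for each gene and for all tested genes together. Pbr005802.1 had the smallest share for stage (11.2%) and the largest for graft type by stage (48.8%).

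Among the 5 genes, the pair with the highest Pearson correlation over the 24 libraries was Pb4CL and Pbr003617.1, with r = 0.57, and r = 0.43 for the deviations from the condition means. Over the 8 condition means r was 0.65 for this pair and 0.64 for Pb4CL with Pbr004676.1. In the deviations Pb4CL and Pbr026289.1 had r = -0.44. Over the 24 libraries the 10 pairs ran from -0.32 to 0.57, and the libraries are shared by all pairs, so these are descriptions. The deviations of Pb4CL and Pbr003617.1 are visible in DCD, where replicate 1 had the lowest FPKM of either gene. The other tested genes most like each gene were found by the same correlation, among 26894 genes, and the files give no name for them. For Pbr003617.1 they were Pbr039890.1 (r = 0.96) and Pbr008511.1 (r = 0.96), with r = 0.94 for each in the deviations from the condition means. These deviations are part of the values that picked the genes, so they add no separate support. Among the genes picked for the others, r of the deviations went down to 0.43 (Pbr020308.1 with Pbr005802.1). For Pb4CL the most similar genes were Pbr006639.1 (r = 0.93) and Pbr000135.1 (r = 0.91). For the other PbCAD genes they were Pbr031190.1 (r = 0.93) and Pbr037895.1 (r = 0.88) with Pbr026289.1, Pbr035938.1 (r = 0.87) and Pbr007595.1 (r = 0.84) with Pbr004676.1, and Pbr020308.1 (r = 0.80) and Pbr026232.1 (r = 0.75) with Pbr005802.1. None of the 10 genes is a member of the 5.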

How the data were processed

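Per the file headers, the deposited values are FPKM, which the authors made by trimming with Cutadapt, aligning with HISAT2 to the Pyrus bretschneideri scaffold genome, counting with HTSeq, and scaling by gene length and library size. How strand and multiply aligned reads were handled is not given in the sources used here, so reads of near-identical CAD copies could be split or lost. FPKM values are whole multiples of the worth of 1 read, and whole reads were recovered within 0.02 reads for 32966 of the 32966 genes above 0 in at least 4 libraries. No libraries were identical (0 pairs), and the reads of replicate pairs differed by more than sampling noise (chi-square per degree of freedom 4.30 to 16.2).

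Genes that reached an FPKM of 1 in 3 or more libraries were fitted on log2(FPKM + 1) with limma 3.58.1 in R 4.3.3, with a mean-variance trend and 1 mean for each of 8 conditions (16 residual degrees of freedom), and the scripts were tested on simulated data. A fold change on this scale understates the change of low genes. Intervals are at 95% and tests are two-sided. Other values were calculated with Python 3.11.15, pandas 2.3.3, and scipy 1.17.1. The named genes are the 5 and, for each, the 2 tested genes with the highest Pearson correlation over the 24 libraries. The genes, lists, and tests were chosen with earlier results of these data known. The alternatives were a pseudocount of 0.1, no filter, an FPKM of at least 5, upper-quartile scaling, no trend, voom on recovered reads, the replicate number as a block, other thresholds, only the 6 libraries of a stage, and each library left out.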

Additional observations from a re-analysis of the deposited data

Results flagged for a closer look

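In Pb4CL, Pbr003617.1, and Pbr005802.1 every heterograft library lay on one side of the homograft libraries at 1 stage and on the other side at another stage. These changes of direction were not tested, since the genes may have been chosen on this contrast. The share of all tested genes with such a change between any stages was not counted, so nothing is read from the number of genes. Pb4CL (Pbr026213.1) had a log2 difference, heterograft minus homograft, of 2.23 at SS and -0.96 at CF, and Pbr003617.1 had 0.93 at SS and -0.99 at CF. This order, above at SS and below at CF without overlap, was found in 3.49% of the tested genes. Pbr005802.1 had 1.00 at CF, then -0.99 at CD, then 0.61 at VC. The order above at CF and below at CD was found in 0.632% of the tested genes. Within graft types, Pbr005802.1 also went opposite ways from CD to VC in every library, with a log2 difference of -1.02 in homografts and 0.58 in heterografts. This difference was not tested either, and the share of all tested genes with it was not counted.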

How the results depend on the processing

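The number of the 5 genes with a stage difference was 4 under every alternative except voom on recovered reads (3) and leaving out single libraries (3 to 4). For Pb4CL the adjusted p of the stage F test was 0.0719 with voom and 0.00165 to 0.0825 with each library left out, its log2 differences from CF to CD were 1.01 to 1.65 and from CD to VC -1.55 to -0.90. The rise of Pbr003617.1 from SS to CF lost its call without a filter (0.78, adjusted p = 0.0665), with upper-quartile scaling (0.73, 0.0606), without the trend (0.78, 0.0550), and with voom (0.79, 0.0502), and was 0.63 to 0.90 with each library left out. The sign of Pbr004676.1 changed from CF to CD with upper-quartile scaling (-0.0036) and with libraries left out (-0.11 to 0.15), and from CD to VC with voom (0.0036) and with libraries left out (-0.15 to 0.12), all near 0. Pbr005802.1 could not be tested with an FPKM of at least 5.

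Over all genes, those past the thresholds of the study in limma numbered 1204, 407, 142, and 181 at SS, CF, CD, and VC. The study itself called DEGs with DESeq on read counts and reported more at every stage. The counts here were 2161, 878, 418, and 504 with a pseudocount of 0.1 and 1993, 825, 404, and 449 with voom. With adjusted p they were 92 at CF and, later, 10 at CD and 53 at VC. With an FPKM of at least 5 they were 86 at CD and 113 at VC. With each library left out they were 140 to 272 at CD, the highest without DCD replicate 1, and 178 to 304 at VC, the highest without SVC replicate 2. The 168 genes called from CF to CD became 34 to 1192, the highest without DCD replicate 1. Of the differences between graft types in the 5 genes, 631 of 636 values under the alternatives moved by less than 1 SD, here the pooled SD of the 2 conditions compared on the log2 scale. Leaving out a library of a condition not compared cannot change a difference, and neither can another filter, so many of these values could not move. The changes of sign given above for single libraries left out are among the 631.

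With the replicate block 16860 genes passed the stage F test instead of 17060, and 4 of the 5 genes did. The replicate numbers gave no clear sign of pairing, which was not tested: 4 of 12 same-numbered pairs of a stage had a correlation of their deviations over 0.1 (-0.10 to 0.18), and 11 of 24 libraries correlated best with their own number. Ranked over the 8 condition means, 2 of the 10 most similar genes were still among the 2 closest. Counting error limits Pbr005802.1 and Pbr026289.1, with as few as 5 and 9 reads in a library.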
